A study of Mus musculus with 8 samples.

Results

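The genes described here are 10 components of the calcium release and reuptake machinery of the heart muscle cell: Cacna1c, Jph2, Ryr2, Trdn, Casq2, Hrc, Atp2a2, Pln, Sln and Slc8a1. They were taken by symbol from the deposited table of coding genes, and all 10 of 10 were found among its 29844 genes and passed the filter on low counts. RNA was sequenced from cardiomyocytes of mouse embryos at E18.5, late in gestation, cultured for 4 days in Advanced DMEM with serum on polydimethylsiloxane, a silicone rubber of tunable stiffness. Of the 8 libraries, 4 were from cells on a stiff rubber (about 150 kPa) and 4 from cells on a soft, physiological one (about 10 kPa). Cells of both groups carried the same H2B-eGFP transgene, a fluorescent histone fusion, on the background named B6.Cg-Tg(HIST1H2BB/EGFP)1Pa/J. Hearts were dissected and digested to single cells, and the labels name no sorting step, so that other heart cells could be present. The comparison asks whether the stiffness of the substrate alters transcript levels in these cells.

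In a heart muscle cell each beat begins when the L-type calcium channel in the surface membrane lets a small amount of calcium in. Junctophilin holds that membrane close to the sarcoplasmic reticulum, where ryanodine receptors open in answer and release the stored calcium that drives contraction. The pump SERCA2 then returns calcium to the store under the brake of small inhibitory peptides, and the sodium-calcium exchanger expels the rest. This system is still maturing around birth, and its transcripts are widely used as signs of cardiomyocyte maturity.

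Across all 10 genes the stiff and soft libraries overlapped, and no gene passed the test in either direction. In edgeR's quasi-likelihood test 0 of the 10 had an adjusted p under 0.05, against 0% of 14059 tested coding genes, and the adjusted p was 0.99997 for each of the 10. None of the 10 had an unadjusted p under 0.05 (background 0.925%, or 130 genes), and none had non-overlapping groups (background 1.29%). If no gene differed, a share of about 0.05 would be expected under that threshold. The test may therefore be conservative here, and the lack of calls is not evidence of no change. With the replicate number added as a block, 360 of 14059 genes had an edgeR unadjusted p under 0.05. The cause of the low share was not tested. Over the other settings run, between 70 and 473 coding genes had an unadjusted p under 0.05, and 272 did without stiff 4 and likewise without soft 2. DESeq2 and limma-voom also called 0 of the 10 and gave 0 at an unadjusted p under 0.05. Estimates were higher on stiff for 4 genes and lower for 6, with a median log2 fold change of -0.01, which is also the median of all tested genes. The outermost bounds of the 95% intervals were 0.539-fold (Hrc) and 1.57-fold (Trdn), and a change inside a gene's own interval could not be told from none.

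Each library held between 27646471 and 34693673 counts in coding genes. Cardiomyocyte transcripts were abundant on both substrates: 15 of 16 fixed markers were detected, summing to 17921 to 29355 CPM (counts scaled to a common library size after TMM adjustment) on stiff and 18246 to 34718 CPM on soft. The remaining marker, Myom1, was listed at 0 in all libraries. Soft 4 stood apart with the 34718 CPM, since the other 3 soft libraries lay between 18246 and 19151 CPM. The 12 fibroblast markers summed to 9142 to 14660 CPM on stiff and 10164 to 17151 CPM on soft, led by Col1a2 and Col3a1. Mural markers (11), endothelial markers (10) and leukocyte markers (10) averaged 2928, 299 and 141 CPM on stiff, and 3338, 284 and 144 CPM on soft. None of 9 marker sums differed by the two-sided exact permutation test over 4 against 4 libraries, whose smallest possible p is 0.0286 (lowest p = 0.429, adjusted 0.943). These are bulk samples, in which fewer cardiomyocytes and less RNA per cardiomyocyte cannot be told apart. Leading digits of the library codes in the labels differ between the substrates, with no meaning given, so any difference that follows the code cannot be told apart from the substrate.

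**Figure D1:**
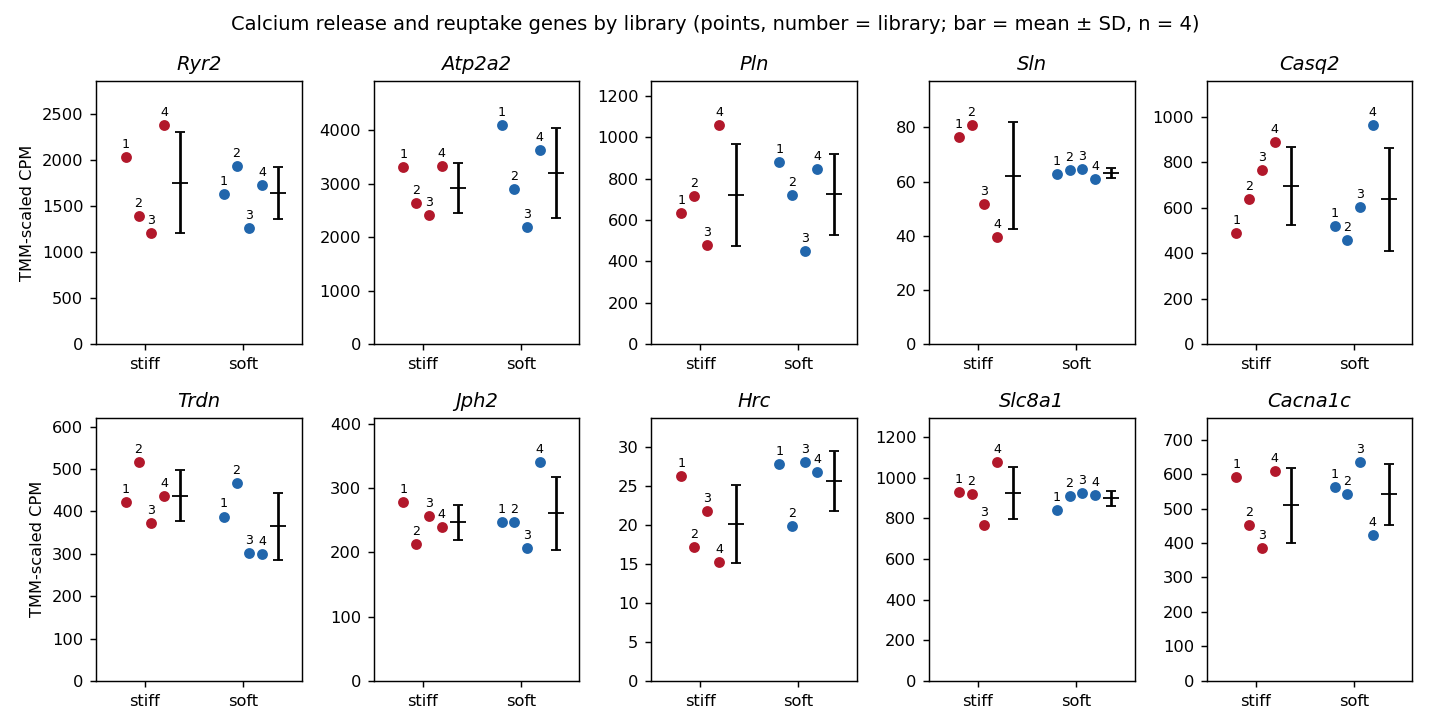
Level of each of the 10 genes (y axis, TMM-scaled CPM, from 0) in the 4 stiff (red, left) and 4 soft (blue, right) libraries, with the library number above each point and the mean ± SD (n = 4) beside it. The groups overlap in every panel; Sln lies between 61.0 and 64.8 CPM in all soft libraries but between 39.5 and 80.9 CPM on stiff.

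For calcium entry the transcript read was Cacna1c, which encodes the pore of the L-type channel Cav1.2 (GRCm38, chromosome 6 from 118587240 to 119197384). Its level was 593, 452, 385 and 608 CPM in stiff libraries 1 to 4, against 563, 542, 636 and 423 CPM in soft libraries 1 to 4. Stiff 2, stiff 3 and soft 4 were low and the groups overlapped throughout. The mean was 509 ± 109 CPM on stiff and 541 ± 88.5 CPM on soft (SD, n = 4 each), a log2 fold change of -0.09 (SE 0.19, edgeR unadjusted p = 0.656). Cacna1c overlaps the coding gene Dcp1b, which held 373 to 755 counts per library, against 12815 to 20824 for Cacna1c.

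Jph2 encodes junctophilin 2, which ties the surface membrane to the sarcoplasmic reticulum (chromosome 2 from 163336242 to 163398049). It stood at 278, 213, 256 and 239 CPM in the stiff libraries and at 247, 247, 207 and 341 CPM in the soft ones. Soft 4 held the highest value and soft 3 the lowest, with the 4 stiff values inside that span. Means were 247 ± 27.4 CPM on stiff and 260 ± 57.0 CPM on soft, with a log2 fold change of -0.08 (SE 0.18, edgeR unadjusted p = 0.671) that turned to 0.09 without soft 4.

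For release from the store, Ryr2, the cardiac ryanodine receptor gene (chromosome 13 from 11553099 to 12106945), had 2032, 1389, 1203 and 2378 CPM on stiff and 1624, 1932, 1258 and 1727 CPM on soft. Stiff libraries fell into a high pair, 1 and 4, and a low pair, 2 and 3, with the soft values in between except soft 3. The mean was 1751 ± 549 CPM on stiff and 1636 ± 282 CPM on soft, with a log2 fold change of 0.10 (SE 0.22, edgeR unadjusted p = 0.663). Its sign rested on single libraries, since the log2 fold change was -0.09 without stiff 4 and -0.0092 without soft 3. Without stiff 3 it was 0.24.

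Trdn, the gene of triadin, which anchors calsequestrin at the release channel (chromosome 10 from 33083483 to 33476709), had the highest estimate on stiff among the 10. Its values were 421, 518, 373 and 436 CPM on stiff, against 388, 467, 303 and 300 CPM on soft. Soft 3 and soft 4 lay below all stiff libraries, while soft 1 and soft 2 lay inside the stiff range. Set beside the soft library of the same number, Trdn was higher on stiff in 4 of 4 pairs, as were 4.27% of all tested genes. Means were 437 ± 60.2 CPM on stiff and 364 ± 79.9 CPM on soft, giving a log2 fold change of 0.26 (SE 0.19, edgeR unadjusted p = 0.177). The estimate stayed above 0 whichever library was left out, from 0.17 without stiff 2 to 0.41 without soft 2, where the edgeR unadjusted p was 0.0427 and the adjusted p 0.99993. With the replicate number as a block the edgeR unadjusted p was 0.0580 and the adjusted p 1.

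Casq2 encodes calsequestrin 2, a protein that binds calcium inside the store (chromosome 3 from 102086415 to 102146514). Stiff libraries held 489, 637, 769 and 889 CPM, and soft libraries 520, 459, 605 and 965 CPM. The value of soft 4 exceeded all others, and soft 2 was the lowest of the 8. The mean was 696 ± 172 CPM on stiff and 637 ± 227 CPM on soft, with a log2 fold change of 0.13 (SE 0.24, edgeR unadjusted p = 0.602), which reached 0.41 (unadjusted p = 0.0599) without soft 4. Soft 4 is also the library with the highest cardiomyocyte marker sum, and stiff 4, the second in Casq2, holds the highest of the stiff sums.

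Hrc, a histidine-rich calcium-binding protein gene of the same store (chromosome 7 from 45335269 to 45338973), had the lowest estimate on stiff among the 10. It was measured at 26.3, 17.1, 21.7 and 15.3 CPM on stiff and at 27.8, 19.8, 28.1 and 26.7 CPM on soft. Soft 2 fell into the stiff range, and the other 3 soft libraries lay above every stiff library. Hrc was lower on stiff in 4 of 4 same-numbered pairs, as were 5.68% of all tested genes, and its edgeR unadjusted p was 0.149 with the block. Means were 20.1 ± 4.94 CPM on stiff and 25.6 ± 3.89 CPM on soft, with a log2 fold change of -0.35 (SE 0.26, edgeR unadjusted p = 0.191) and a 95% interval from -0.89 to 0.19. Leaving out each library kept it below 0, from -0.51 without stiff 1 to -0.24 without stiff 4. Counts behind Hrc were the fewest of the 10, between 503 and 844 per library.

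For reuptake the transcripts read were Atp2a2, the gene of the pump SERCA2 (chromosome 5 from 122453513 to 122502225), and those of its peptide inhibitors. Atp2a2 stood at 3315, 2651, 2412 and 3338 CPM in the stiff libraries and at 4103, 2898, 2190 and 3639 CPM in the soft ones. Soft 1 and soft 4 exceeded all stiff libraries, and soft 3 lay below them. The mean was 2929 ± 469 CPM on stiff and 3208 ± 841 CPM on soft, with a log2 fold change of -0.13 (SE 0.21, edgeR unadjusted p = 0.539). Without soft 1 the log2 fold change was 0.0095, and without soft 3 it was -0.28.

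Pln encodes phospholamban, a peptide that slows SERCA2 until it is phosphorylated (chromosome 10 from 53337686 to 53345999). Its level was 634, 717, 478 and 1059 CPM on stiff and 879, 720, 450 and 847 CPM on soft, a 2.36-fold span that is the widest of the 10. Stiff 4 was the highest library and soft 3 the lowest, and within each substrate library 3 held the least Pln, Atp2a2 and Ryr2. Fibroblast marker sums were high in stiff 3 and soft 3, at 14660 and 17132 CPM, but also in stiff 4 and soft 4, at 13783 and 17151 CPM. Of these, stiff 4 held the most Pln and Ryr2 of all libraries, and also the highest cardiomyocyte marker sum on stiff, 29355 CPM. The part of cell makeup in the levels of the 3 genes was not tested. The mean was 722 ± 246 CPM on stiff and 724 ± 195 CPM on soft, with a log2 fold change of -0.0036 (SE 0.25, edgeR unadjusted p = 0.989). Other settings put it on either side of 0, among them RLE scaling at 0.0057, and it was -0.25 without stiff 4 and 0.15 without stiff 3. Pln lies within the span of the coding gene Cep85l, which held 875 to 1860 counts per library, and strand handling is not given in the sources used here.

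Sln encodes sarcolipin, a second peptide inhibitor of the pump that in the adult mouse heart is mainly atrial (chromosome 9 from 53850251 to 53853849). On stiff it stood at 76.4, 80.9, 51.8 and 39.5 CPM, and on soft at 62.7, 64.2, 64.8 and 61.0 CPM. The 4 soft libraries lay close together and the stiff libraries fell on both sides of them, 1 and 2 above and 3 and 4 below. The coefficient of variation was 31.9% on stiff and 2.67% on soft, a contrast in spread that was noticed after the values were seen and was not tested. Counting error alone comes to 2.32% for the soft libraries, about as much as their whole spread. The mean was 62.2 ± 19.8 CPM on stiff and 63.2 ± 1.68 CPM on soft, with a log2 fold change of -0.02 (SE 0.22, edgeR unadjusted p = 0.914). Without stiff 4 the log2 fold change was 0.14 and without stiff 2 it was -0.18.

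Calcium extrusion rests mainly on Slc8a1, the gene of the sodium-calcium exchanger NCX1 (chromosome 17 from 81373105 to 81738387). It was the steadiest of the 10 across libraries, with a 1.41-fold span from lowest to highest. Values were 932, 920, 767 and 1080 CPM on stiff and 840, 909, 927 and 916 CPM on soft. Stiff 3 was the lowest and stiff 4 the highest of all, with the soft values in between. Means of 925 ± 128 CPM on stiff and 898 ± 39.1 CPM on soft gave a log2 fold change of 0.04 (SE 0.16, edgeR unadjusted p = 0.800), and its 95% interval allows 0.809-fold to 1.31-fold.

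**Figure D2:**
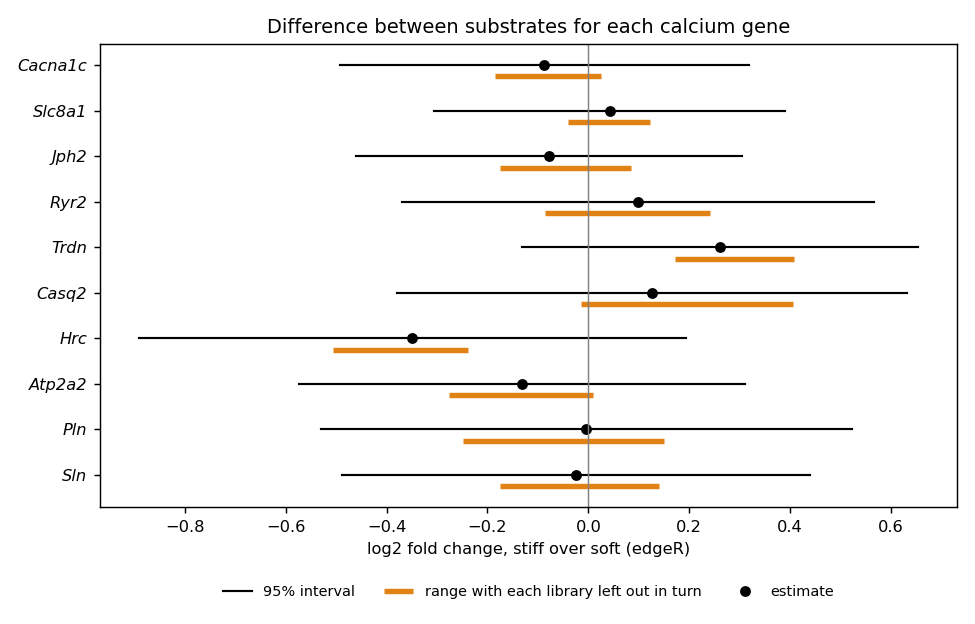
Log2 fold change of each gene, stiff over soft (x axis), with its 95% interval from edgeR (black) and, below it, the range of estimates with each library left out in turn (orange). Every interval crosses 0, and the orange ranges of Trdn and Hrc alone stay on one side of it.

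The ratio of inhibitor to pump transcripts was read within each library, where it does not depend on library scaling. Counts of Pln per 100 counts of Atp2a2 were 19.1, 27.0, 19.8 and 31.7 in the stiff libraries and 21.4, 24.9, 20.5 and 23.3 in the soft ones. Counting error was small beside this spread: the exact (Clopper-Pearson) 95% interval of stiff 4 ran from 31.4 to 32.1, which covers counting error only. Stiff libraries spread wider than soft ones, with 1 and 3 below all soft values and 2 and 4 above them. The mean ratio was 24.4 ± 6.04 on stiff and 22.5 ± 1.93 on soft (SD, n = 4 each). On the log2 scale the difference was 0.09 (SE 0.19), with a two-sided exact permutation p of 0.629, and it was -0.05 without stiff 4. The 2 genes differ in transcript length, for which no correction was made, so the ratio compares libraries and not the 2 transcripts. Counts come from bulk samples and may in part come from cells other than cardiomyocytes. The part of cell makeup in the ratio was not tested.

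Counts of Sln per 100 counts of Pln were 12.0, 11.3, 10.8 and 3.73 on stiff and 7.13, 8.91, 14.4 and 7.21 on soft. Stiff 4 had by far the lowest ratio, since it combined the lowest Sln with the highest Pln level of the 8 libraries, and soft 3 had the highest. The mean was 9.47 ± 3.86 on stiff and 9.42 ± 3.43 on soft, and the log2 difference was -0.07 (SE 0.47, two-sided exact permutation p = 0.943). Without stiff 4 the log2 difference was 0.34, and without stiff 1 it was -0.23. Adjusted over the 2 ratios, p was 0.943 for each.

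Chamber markers were read beside the sarcolipin ratio. The summed level of 9 atrial markers, led by Nppa and Pam, was 9033 to 11132 CPM on stiff and 8163 to 12456 CPM on soft. Nppa and Pam averaged 6013 and 2881 CPM on stiff and 5588 and 2697 CPM on soft, so the atrial sum mainly follows them. For 6 ventricular markers, led by Myl2, the sums were 1869 to 2380 CPM on stiff and 1511 to 3399 CPM on soft. The atrial sum divided by the ventricular sum gave 5.50, 5.77, 3.84 and 4.03 in the stiff libraries and 4.29, 5.40, 4.14 and 3.66 in the soft ones. Stiff 4, lowest in the sarcolipin ratio, stood at 4.03 in this chamber ratio, inside the range of the others. Soft 3, highest in the sarcolipin ratio, was at 4.14, also inside that range. Whether this chamber ratio reports chamber makeup was not tested, nor was the part of chamber makeup in the sarcolipin ratio.

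**Figure D3:**
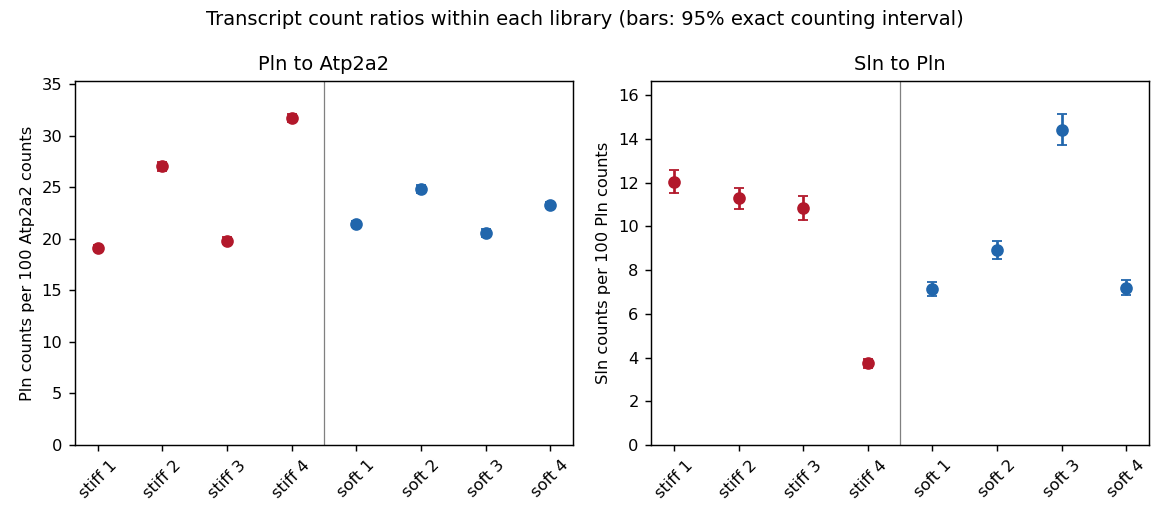
Counts of Pln per 100 counts of Atp2a2 (left) and of Sln per 100 counts of Pln (right) in each library, stiff in red and soft in blue, with 95% exact counting intervals. Stiff 4 has the highest Pln to Atp2a2 ratio, 31.7, and the lowest Sln to Pln ratio, 3.73.

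The levels of the 10 genes were read beside the cardiomyocyte marker sum of each library. Soft 4, with the highest sum, was the highest library for Casq2 and Jph2 but the lowest for Trdn, and it lay below the mean of 8 libraries for 3 of the 10 genes. The sum is led by Actc1 and Ttn, and its markers disagreed on soft 4. Actc1 reached 10552 CPM and Myh6 7425 CPM there, while no other soft library exceeded 4796 and 3432 CPM. Ttn was at 5665 CPM, close to the 5601 CPM of soft 2. Myh7 was at its soft minimum there, at 780 CPM, the next being 1243 CPM in soft 1. Stiff 4 likewise held the most Actc1 and Myh6 of the stiff libraries, 7745 and 5187 CPM, and the least Myh7, 502 CPM. Whether the 10 genes follow cardiomyocyte content was not tested. Stiff 4 was the highest library for Ryr2, Pln and Slc8a1 and the lowest for Sln and Hrc. Stiff 3 was the lowest for Ryr2, Slc8a1 and Cacna1c, and soft 3 was the lowest for Atp2a2, Pln and Jph2 and the highest for Hrc and Cacna1c. When each level was divided by the marker sum of its library, the spread within substrates became smaller for 2 of 10 genes. The same share was not computed for all tested genes, and the divisor carries the outlying sum of soft 4. No reading on cardiomyocyte content is drawn from this count. For Casq2 the within-group SD was 0.26 for the log2 level per marker sum, against 0.42 in log2 CPM, and for Pln it was 0.42 against 0.46. For Slc8a1 it was larger, 0.35 against 0.15 in log2 CPM, and the median over the 10 genes was 0.40 against 0.31. Scaled to the marker sum, 0 of the 10 genes were called, and the log2 fold change was 0.16 for Casq2, 0.20 for Trdn, -0.37 for Hrc and -0.20 for Cacna1c.

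**Figure D4:**
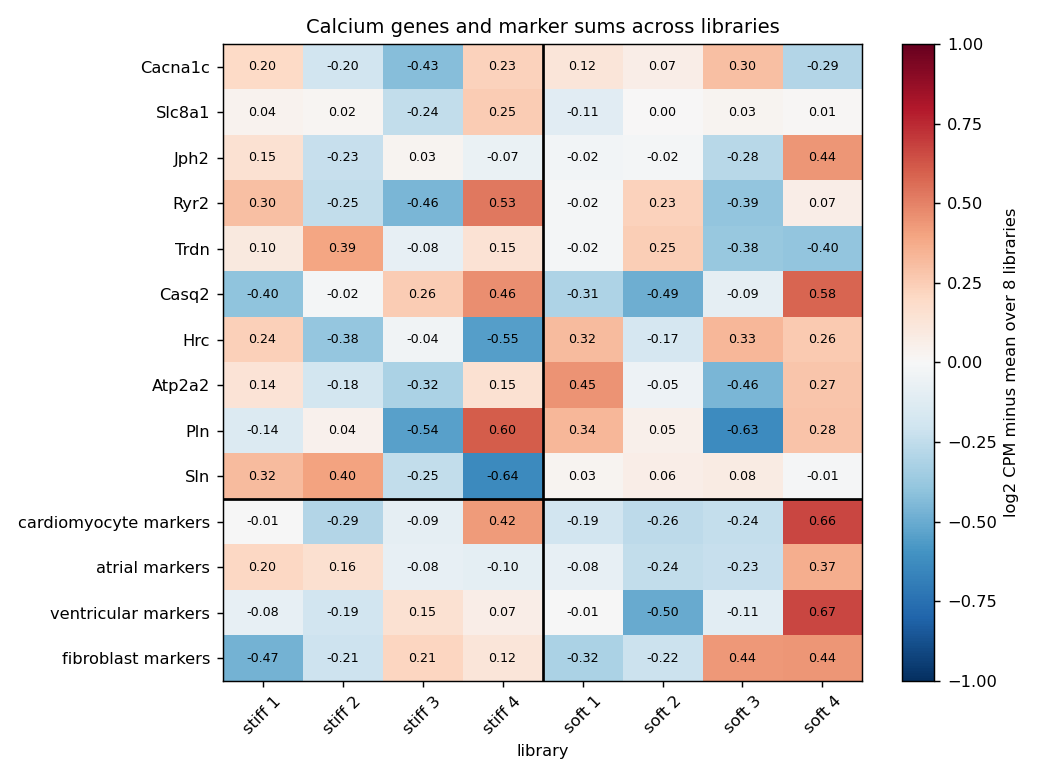
Log2 CPM minus the mean over the 8 libraries (colour and printed value) for the 10 genes and for 4 marker sums (rows) in each library (columns, stiff left of soft). Soft 4 is high in the cardiomyocyte sum, at 0.66, and in Casq2, at 0.58, but low in Trdn, at -0.40.

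Start-site windows, from 250 bases before to 50 bases after a RefSeq start on GRCm38.p6, were held for 7 of the 10 genes (10 windows). They were searched on both strands for 7 short motifs known from muscle promoters or from promoters in general. The windows of Casq2 and Pln, the genes whose spread narrowed relative to the marker sum, and of the steady Slc8a1 are shown, since they also hold the only match to the MEF2 site and most of those to the GATA core. Capitals mark the MEF2 site (in Casq2), TATAAA (in Pln) and GATAA or its reverse complement TTATC (in Pln and Slc8a1). Casq2 lies on the plus strand at chr3:102086165-102086464, Pln on the plus strand at chr10:53337436-53337735, and Slc8a1 on the minus strand at chr17:81738338-81738637.
Casq2: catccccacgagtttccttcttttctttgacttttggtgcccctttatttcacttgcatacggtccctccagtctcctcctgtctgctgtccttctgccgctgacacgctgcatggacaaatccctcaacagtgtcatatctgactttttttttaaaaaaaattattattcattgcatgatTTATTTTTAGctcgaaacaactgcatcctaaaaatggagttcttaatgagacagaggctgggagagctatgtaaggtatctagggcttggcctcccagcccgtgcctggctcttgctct
Pln: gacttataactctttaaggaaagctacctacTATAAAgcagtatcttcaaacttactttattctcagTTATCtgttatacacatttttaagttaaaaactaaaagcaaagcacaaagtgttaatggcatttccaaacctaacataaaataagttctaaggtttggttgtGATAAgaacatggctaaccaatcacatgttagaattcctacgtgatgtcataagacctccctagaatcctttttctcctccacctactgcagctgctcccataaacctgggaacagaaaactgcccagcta
Slc8a1: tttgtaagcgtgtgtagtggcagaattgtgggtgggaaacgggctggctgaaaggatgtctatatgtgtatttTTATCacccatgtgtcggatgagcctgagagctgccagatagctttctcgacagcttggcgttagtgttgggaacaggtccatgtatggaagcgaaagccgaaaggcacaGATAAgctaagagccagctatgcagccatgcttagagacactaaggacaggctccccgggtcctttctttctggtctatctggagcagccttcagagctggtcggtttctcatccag

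A MEF2 site was found in 1 of the 10 windows, from position -69 to -60 of Casq2 with the start at 0, and in 3.19% of 32851 such windows in the genome. GATAA was found in 3 windows (Pln and Slc8a1 with a match on each strand, and Hrc with 1 match), against 25.4% of all windows. TATAAA was found in 1 window, that of Pln, against 13.6%. The CArG box and the MCAT element CATTCC had 0 matches, against 1.63% and 14.7% of all windows. The E box CANNTG was in all 10 windows (72.3% of all) and the GC box GGGCGG in 5 (35.7%). The 2 windows of Jph2 overlap over most of their length, so the same letters count in both, and by gene the E box was held by 7 of 7 and the GC box by 4 of 7. CANNTG can overlap the other motifs, and overlaps were not removed. These matches describe letters in the window and say nothing of binding.

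Genes whose profile over the 8 libraries was closest to a pump gene were sought among 6171 other coding genes with a mean of at least 32 CPM, by the root mean square difference of centred log2 CPM. For Pln they were Sgk1 (0.0780), Id2 (0.118) and Tbx20 (0.154), against a median of 0.464 over all genes. Tbx20, a cardiac transcription factor gene, stood at 735, 873, 514 and 1266 CPM on stiff and 803, 683, 453 and 800 CPM on soft, with the same highest and lowest library as Pln. For Atp2a2 the closest were Pip5k1b (0.0901), Gpam (0.129) and Acsl1 (0.131), against a median of 0.386. For Sln they were Lgmn (0.0971), Creld1 (0.11) and Slc48a1 (0.113), against 0.387. Lgmn, which encodes a lysosomal protease, had 179, 186, 138 and 94.1 CPM on stiff and 141, 155, 147 and 127 CPM on soft, with stiff 4 lowest as in Sln. Close profiles were picked as the extremes of many genes over 8 libraries and are descriptions.

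Other calcium genes were read from 5 lists of 65 genes, of which 64 were in the table and 59 passed the filter. By edgeR 0 rose and 0 fell, with 0 at an unadjusted p under 0.05, and estimates were higher on stiff for 28 and lower for 31, with a median log2 fold change of -0.00034 against -0.01 over all tested genes. Over all tested genes, 6759 estimates were higher and 7300 lower on stiff. Among 13 tested genes of entry and the dyad, 4 had higher and 9 lower estimates on stiff. The auxiliary channel subunit genes Cacna2d1 and Cacnb2 were estimated at 0.19 (SE 0.20) and -0.02 (SE 0.21) on the log2 fold scale, and Ahnak, the gene of a giant membrane scaffold, 0.17 (SE 0.18). Gem, encoding a small GTPase that restrains the channel, stood at 7.74 ± 4.61 CPM on stiff and 13.4 ± 8.61 CPM on soft. Cacna1d, the pore gene of a related L-type channel, stood at 1.59 ± 0.90 CPM on stiff and 3.58 ± 2.27 CPM on soft. Unadjusted edgeR p was 0.137 for Gem and 0.167 for Cacna1d. The log2 fold change of Gem was -0.79 (SE 0.50) and ran from -1.26 without stiff 3 to -0.35 without soft 3. Its unadjusted edgeR p was 0.0260 without stiff 3, 0.0385 without soft 4 and 0.0475 with the replicate block, and its adjusted p was then 0.9999, 0.9999 and 1.

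Of 18 tested genes around the release channel, 8 had higher and 10 lower estimates. The log2 fold change was 0.09 (SE 0.18) for Akap6, the gene of an anchoring protein of kinase A, 0.02 (SE 0.16) for Asph, whose products include junctin, and 0.16 (SE 0.18) for the IP3 receptor gene Itpr1. Ryr1, the skeletal release channel, was near its detection limit, with 0.221 ± 0.443 CPM on stiff and 0.661 ± 0.498 CPM on soft, and its edgeR unadjusted p was 0.0269 without stiff 2 (adjusted p 0.9999).

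Of 14 tested regulators of reuptake, 7 had higher and 7 lower estimates. The phosphatase subunit gene Ppp1cb was estimated at a log2 fold change of -0.04 (SE 0.21), the sarcalumenin gene Srl 0.03 (SE 0.26) and Camk2d, the main cardiac CaM kinase II gene, -0.04 (SE 0.17). Camk2b stood at 4.71 ± 1.94 CPM on stiff and 8.0 ± 4.20 CPM on soft (edgeR unadjusted p = 0.136), the lowest p of the 59, which was 0.0483 without soft 2 (adjusted p 0.9999), and Akap7 had a log2 fold change of 0.17 (SE 0.21). Srl, like Casq2, was highest in soft 4, and its log2 fold change was 0.38 without that library.

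Extrusion had 4 tested genes, 1 with a higher and 3 with lower estimates. The membrane calcium pump genes Atp2b1 and Atp2b4 had log2 fold changes of -0.07 (SE 0.18) and -0.27 (SE 0.25). Slc8a2 and Slc8a3, exchanger genes known mainly from brain and skeletal muscle, stood at 2.40 ± 1.09 and 0.764 ± 0.730 CPM on stiff, and at 2.14 ± 1.78 and 1.92 ± 0.912 CPM on soft. In store refill and mitochondrial uptake 8 of 10 tested genes had higher estimates on stiff, with a median log2 fold change of 0.08. Over the table this held for 6759 of 14059 tested genes. The lowest edgeR unadjusted p in the list was 0.412. In this list the uniporter regulator gene Micu2 had 0.14 (SE 0.17) and the store sensor gene Stim2 0.09 (SE 0.20).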

How the data were processed

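Total RNA of 8 libraries, 4 per substrate, was sequenced by the submitters, and the authors deposited raw counts (whole numbers per Ensembl gene and library). Tools listed in the submitters' processing notes, without roles, are HTSeq 0.6.1, TopHat2 2.0.14 with Bowtie2, Cufflinks, edgeR, DESeq2 and FastQC 0.11.2, and the build is GRCm38. How strand was handled is not given in the sources used here, and noncoding genes were left out. Groups follow the substrate label. Symbols matched 29150 of 29844 rows.

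Counts were fitted in R 4.3.3 with edgeR 4.0.16: filterByExpr (minimum count 10, minimum total 15) kept 14059 genes, libraries were scaled by TMM, and the substrates were compared by the robust quasi-likelihood test, with no other term. Adjustment was by Benjamini-Hochberg over all 14059 genes, with a call at 0.05. Levels are TMM-scaled CPM, and fold changes are stiff over soft. DESeq2 1.42.0 and limma-voom (limma 3.58.1) were alternatives, as were other scalings, other filters, each library left out and a replicate block. Ratios and marker sums were compared by two-sided exact permutation tests. In counts simulated for stiff against soft over 14059 genes, the fit recovered 45 of 67 genes altered 4-fold, 22 of 67 altered 2-fold and 1 of 66 altered 1.5-fold, and made 6 false calls. Among altered genes with a mean of at least 32 CPM, as all of the 10 but Hrc had, it called 22 of 22, 17 of 32 and 1 of 34. The simulated counts were independent between libraries, so links between same-numbered libraries were not modelled and these rates need not hold in the data. No transcript lengths were used, so the naming by level and the leading genes of marker sums go by CPM with no correction for length.

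The 10 genes and all lists were chosen with earlier results of these data known. Outside the 10, the rule named in each of the 5 other calcium lists the 3 genes of highest level and the 2 of lowest p, and the 3 genes closest in profile to Atp2a2, Pln and Sln. Some genes that the rule named are not reported here. The labels do not say whether libraries of a group came from separate cultures or litters, so p-values reflect only how these libraries vary, perhaps in part for technical reasons. No 2 libraries agreed within sampling noise (lowest chi-square per degree of freedom 45.9 over 28 pairs). That lowest value was for stiff 2 with soft 2. Stiff 1 with soft 1 gave 47.4, stiff 2 with soft 1 gave 52.2 and stiff 3 with soft 3 gave 56.0. Libraries 1 to 3 of each substrate were thus closest to the same number on the other substrate. Stiff 4 was not, at 118 with soft 4 against 109 with soft 3. Replicate numbers were given in accession order and equal the last digit of the library codes. Deviations from group means of same-numbered libraries correlated at 0.104 to 0.305 across genes, against -0.228 to 0.130 for the 12 other stiff and soft pairs, and a blocked fit on these numbers was run beside the unpaired one.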

Additional observations from a re-analysis of the deposited data

Results flagged for a closer look

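In groups of 4 libraries, the gap between the most extreme library and its nearest neighbour was set against the range of the group, for the 10 genes, the 2 ratios and 9 marker sums (42 groups). The gap was wide in 3 of the 42 groups, where chance alone gives a wide gap in about 1 group in 20. The count is thus close to that rate, and groups that share libraries are not independent. Hrc in soft 2 was at 19.8 CPM, below the other soft libraries, and its stiff over soft estimate was -0.45 without that library. The Sln to Pln ratio in stiff 4 was 3.73 per 100, below the 10.8 to 12.0 of the other stiff libraries, and the log2 difference between the substrates without stiff 4 was 0.34. The cardiomyocyte marker sum of soft 4 was 34718 CPM, above the 18246 to 19151 CPM of the other soft libraries, and 0 of the 10 genes were called without soft 4.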

How the results depend on the processing

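Under all 18 alternatives run, 0 coding genes were called, and among the 10 genes 0 passed adjustment; the lowest adjusted p of any of them was 0.9996. The number of unadjusted p-values under 0.05 over all genes was 130. It was 70 scaled to cardiomyocyte markers, 322 with DESeq2, 473 with no filter and 245 without stiff 4 and soft 4, and with 1 library left out it ran from 122 (soft 3) to 272 (stiff 4, and again soft 2), with 230 (stiff 1), 213 (soft 4) and 199 (stiff 3) also over 1.5 times the 130. It was 360 with the replicate block, in which no call changed and the block log2 fold change of Trdn was 0.28. With the replicate block the log2 difference was 0.09 for the Pln to Atp2a2 ratio and -0.07 for the Sln to Pln ratio, as without it. The sign held in every run for Trdn and Hrc and turned in at least 1 for the other 8 genes. With each library left out in turn, log2 fold changes ran from -0.086 to 0.24 for Ryr2, -0.28 to 0.0095 for Atp2a2, -0.25 to 0.15 for Pln, -0.18 to 0.14 for Sln, -0.014 to 0.41 for Casq2, -0.17 to 0.085 for Jph2, -0.041 to 0.12 for Slc8a1 and -0.18 to 0.026 for Cacna1c. Log2 ratio differences ran from -0.048 to 0.20 for Pln to Atp2a2 and from -0.23 to 0.34 for Sln to Pln. Of the 20 other calcium genes named, 11 kept their sign in every run. The others ran from -0.027 to 0.31 (Cacna2d1), -0.27 to 0.13 (Cacnb2), -0.082 to 0.074 (Asph), -0.16 to 0.16 (Ppp1cb), -0.17 to 0.38 (Srl), -0.14 to 0.035 (Camk2d), -0.19 to 0.031 (Atp2b1), -0.15 to 0.89 (Slc8a2) and -0.11 to 0.18 (Stim2). With RLE scaling, no filter and DESeq2, Pln was at 0.0057, 0.0013 and 0.0061. Scaled to cardiomyocyte markers, Slc8a1 was at -0.016 and Asph at -0.045, and the linear Sln to Pln ratio differed by 0.00055. Leaving out stiff 4 and soft 4 together, chosen after seeing the data, gave -0.053 for Ryr2, 0.13 for Sln, 0.10 for Jph2, -0.026 for Slc8a1, -0.021 for Cacna2d1, -0.073 for Asph, -0.031 for Stim2, -0.030 for the Pln to Atp2a2 ratio and 0.23 for Sln to Pln. The cause of these turns was not tested. Ratios per transcript length were not run. Each of the 10 genes had 503 or more counts in every library, and counting error was small beside the spread between libraries except for Sln on soft, where it was 2.32% against a spread of 2.67%.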

Other observations

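Some isoforms best known from skeletal muscle were present and others were nearly absent, as seen after the values were known. Casq1, the skeletal calsequestrin gene, stood at 277 ± 86.2 CPM on stiff and 281 ± 117 CPM on soft (SD, n = 4 each), and its log2 fold change was -0.02 (SE 0.28). Ryr3, another ryanodine receptor gene, stood at 22.2 ± 16.2 CPM on stiff and 26.5 ± 11.6 CPM on soft, with a log2 fold change of -0.25 (SE 0.45). Atp2a1, the skeletal calcium pump gene, had 35 counts over all 8 libraries and was below the filter, as were Cacna1s with 135 counts and the myoregulin gene Mrln with 35. Among genes of channel restraint, Rrad, a small GTPase gene, stood at 132 ± 49.1 CPM on stiff and 165 ± 25.7 CPM on soft (log2 fold change -0.32, SE 0.24).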
